A study of Mus musculus with 15 samples.

Results

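Fc gamma receptors bind the constant part of IgG antibodies, and 8 genes of this system are described here across mouse bone macrophages of 3 genotypes. The genes were taken by symbol from the deposited gene table, which listed 16886 genes. They comprise 3 activating receptors (Fcgr1, Fcgr3 and Fcgr4), the inhibitory receptor Fcgr2b, the signalling adaptors Fcer1g and Tyrobp, the kinase Syk and the IgG transport receptor Fcgrt. All 8 passed the filter on low counts, after which 11668 genes were tested. The series held 15 RNA-seq libraries: 5 of VLDLR knockout (VLDLR KO) macrophages, 5 of ROBO4 knockout (ROBO4 KO) macrophages and 5 of wild type (WT) macrophages. VLDLR is a receptor for apolipoprotein E containing lipoproteins and for reelin, and ROBO4 is a roundabout receptor best known in endothelium. Per the labels, every library came from the strain C57BL6J, and all cells grew for 14 days in culture medium with M-CSF, the macrophage growth factor, at 20 ng/ml. The labels gave neither the alleles nor whether the libraries of a genotype came from separate animals or cultures. Each p-value thus sets a difference against the spread between these libraries, which may be technical.

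The sample codes had 2 forms, one with a digit after the letter B and one with a digit before it, and the labels did not say what the form stands for. The form with the digit after B held 3 VLDLR KO, 3 ROBO4 KO and 2 WT libraries, and the form with the digit before B held 2 VLDLR KO, 2 ROBO4 KO and 3 WT libraries. Between the forms, 38.1% of tested genes differed at an adjusted p under 0.05, so the form entered each test as a covariate. Values within each form are also given for the 8 genes, and for list genes whose pooled call failed in a form, while neighbouring genes, transcripts and the marker Mrc1 are given by their pooled tests. Libraries held 18132866 to 19005966 estimated counts each. Vldlr had 1 to 9 counts in VLDLR KO libraries, 2 to 38 counts in ROBO4 KO libraries and 5 to 36 counts in WT libraries, and Robo4 had 0 counts in all ROBO4 KO libraries and at most 4 in the other libraries, so at this depth neither gene checked the labels. All 16 macrophage markers were tested, and their summed level was 26100 to 50100 CPM (counts scaled to library size) in VLDLR KO libraries, 22400 to 24600 CPM in ROBO4 KO libraries and 20900 to 27300 CPM in WT libraries. Lyz2 alone had a mean of 18000 CPM in VLDLR KO, 7790 CPM in ROBO4 KO and 7510 CPM in WT. Of the 16 markers, 10 had a higher and 6 a lower pooled value in VLDLR KO than in WT. Markers of other Fc receptor bearing cells were low: B cell markers summed to at most 66.1 CPM, neutrophil markers to at most 34.9 CPM, and T and NK cell, mast cell and dendritic cell markers to at most 2 CPM in any library. The sum of the deposited per-length values stood apart in VLDLR KO replicate 2, at 676957, against 532163 to 589384 in the other 14 libraries.

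An activating Fc gamma receptor signals through a partner. In the mouse, Fcgr1, Fcgr3 and Fcgr4 bind IgG outside the cell and rely on the Fc receptor gamma chain, encoded by Fcer1g, which carries an immunoreceptor tyrosine-based activation motif (ITAM) inside it. When IgG complexes cluster the receptors, SRC family kinases phosphorylate the ITAM and SYK docks on it, which starts phagocytosis, the oxidative burst and cytokine release. Fcgr2b carries an inhibitory motif (ITIM) instead, recruits the lipid phosphatase SHIP1 and opposes these signals when it is bound by the same complexes. The balance of activating receptors over Fcgr2b sets the threshold at which a macrophage responds to immune complexes. TYROBP, also called DAP12, is an ITAM adaptor of other receptors such as TREM2 and also works through SYK. FCGRT, the neonatal Fc receptor, pairs with beta 2 microglobulin, binds IgG in acidic endosomes and returns it to the surface.

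The promoters of Fcgr2b, Fcgr4 and Fcgr1 are shown because these were the members whose VLDLR KO and WT libraries did not overlap. Each line gives the 250 bases before the annotated start of transcription, 5′ to 3′ on the strand of the gene, from RefSeq on the build GRCm38.p6, at chr1:170976072-170976321 (minus strand) for Fcgr2b, chr1:171018676-171018925 (plus strand) for Fcgr4 and chr3:96293970-96294219 (minus strand) for Fcgr1. Capitals mark matches on either strand to any of 5 motifs: GAGGAA, read by the myeloid factor PU.1, TTCNNNGAA, the interferon gamma activated site, the interferon response core, spelled GAAA, any 2 bases and GAAA again, TGANTCA, bound by FOS and JUN dimers, and CACGTG, bound by MITF and its relatives.
Fcgr2b: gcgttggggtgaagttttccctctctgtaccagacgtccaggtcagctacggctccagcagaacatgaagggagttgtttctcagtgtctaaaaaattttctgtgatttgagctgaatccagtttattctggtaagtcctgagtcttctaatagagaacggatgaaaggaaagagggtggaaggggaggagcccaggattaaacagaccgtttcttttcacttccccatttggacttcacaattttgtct
Fcgr4: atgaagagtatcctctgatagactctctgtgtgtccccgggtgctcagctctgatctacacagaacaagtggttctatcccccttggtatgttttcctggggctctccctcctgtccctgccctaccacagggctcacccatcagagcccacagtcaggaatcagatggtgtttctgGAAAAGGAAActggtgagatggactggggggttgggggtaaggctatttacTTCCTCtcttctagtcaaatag
Fcgr1: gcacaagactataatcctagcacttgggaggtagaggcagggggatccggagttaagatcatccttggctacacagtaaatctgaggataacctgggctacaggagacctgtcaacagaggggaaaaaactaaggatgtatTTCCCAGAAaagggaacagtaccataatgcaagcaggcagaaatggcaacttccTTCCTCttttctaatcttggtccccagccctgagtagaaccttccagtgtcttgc
Fcgr4 held a match to the interferon response core that begins 73 bases before the start and a GAGGAA match, on the minus strand, that begins 22 bases before it. Fcgr1 held a TTCNNNGAA match 109 bases before the start and a GAGGAA match 55 bases before it. Fcgr2b held a match to none of the 5 in this window. Over all 32851 promoters of the same table and length, 23.3% held GAGGAA, 7.02% held TTCNNNGAA, 2.98% held the interferon response core, 6.75% held TGANTCA and 6.02% held CACGTG. RefSeq start sites were available for 7 of the 8 genes, and among the other 4 genes with one, GAGGAA matched at the same site in both overlapping windows of Fcgr3 and in 1 of the 2 windows of Syk. These matches describe the letters only, and whether a factor binds there was not measured.

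Over both code forms, the inhibitory receptor was higher in VLDLR KO than in WT macrophages, and all 3 activating receptors and their shared gamma chain were lower. Of the 8 genes, 5 passed an adjusted p under 0.05, 1 higher and 4 lower, where 16.8% of all tested genes passed, 7.74% higher and 9.03% lower (edgeR quasi-likelihood test, Benjamini-Hochberg adjustment over all genes). At an unadjusted p under 0.05, 6 of 8 passed, where 32.1% of all genes did. The median log2 fold change of the 8 genes was -0.413, against 0.019 over all tested genes. Only Fcgr2b and Fcgr4 were called in the same direction within each code form. Fcgr2b, Fcgr4, Fcgr3 and Fcer1g lie together on chromosome 1, so their calls are not independent. In ROBO4 KO macrophages 0 of the 8 genes passed against WT, where 0.643% of all genes passed. DESeq2 and limma also called 0 of 8, and 3 of 8 had an unadjusted p under 0.05, where 6.13% of all genes did. Both comparisons share the WT libraries.

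**Figure D1:**
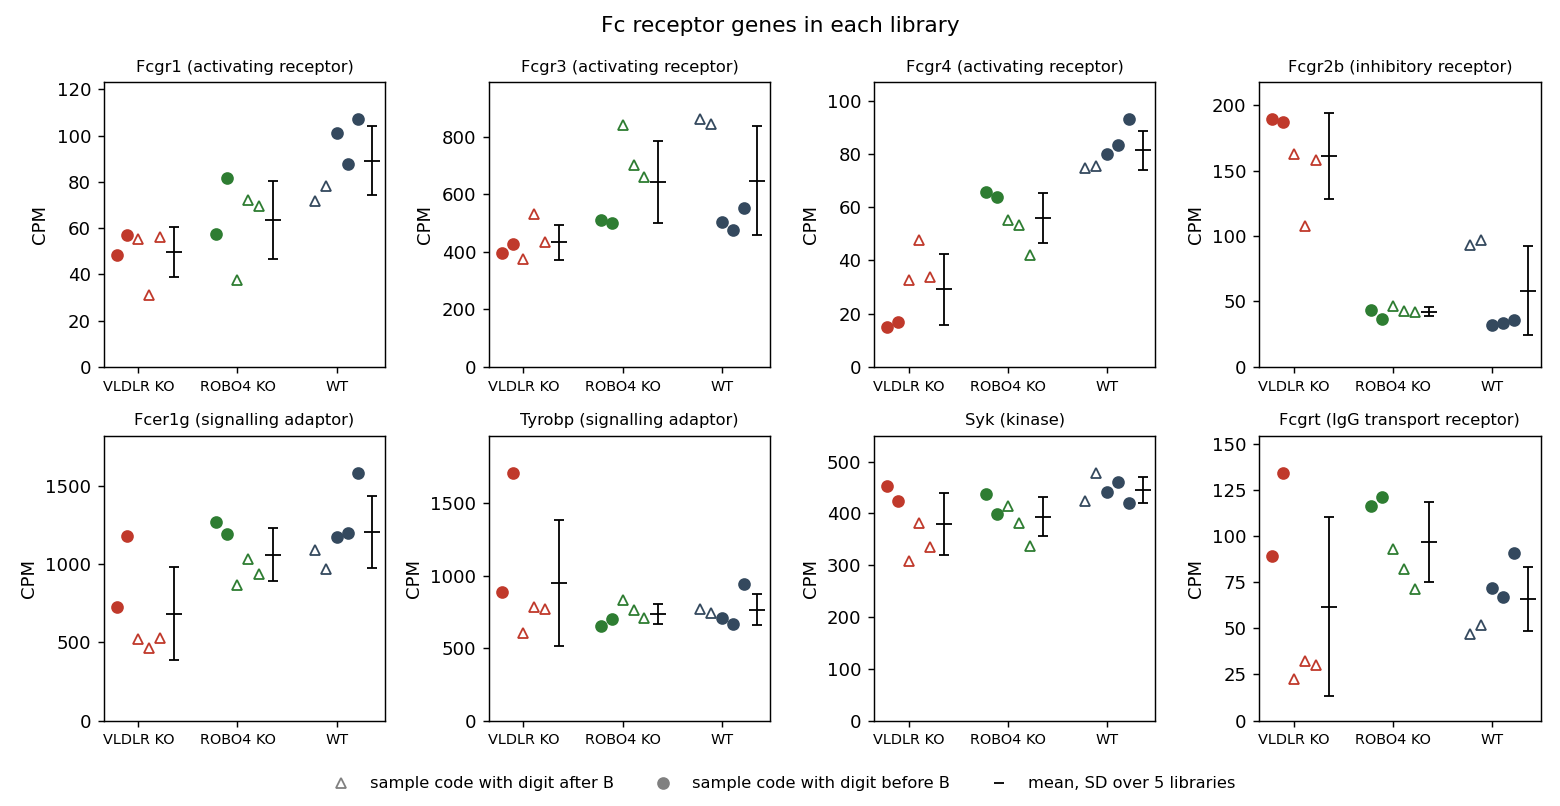
CPM of the 8 genes in each of the 15 libraries (y axis, linear, from 0), with VLDLR KO, ROBO4 KO and WT from left to right, triangles for sample codes with the digit after B, filled circles for the digit before B, and the mean with its SD over 5 libraries at the right of each group. Fcgr2b ran from 108 to 189 CPM in VLDLR KO libraries, above all libraries of the other genotypes, and Fcgr4 and Fcgr1 lay below all WT libraries.

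Fcgr2b, the inhibitory receptor, had 163, 108 and 158 CPM in VLDLR KO libraries with the digit after B and 189 and 187 CPM in those with the digit before B. ROBO4 KO libraries had 46.5, 42.9 and 41.6 CPM (digit after B) and 43.4 and 36.9 CPM (digit before B). WT libraries had 93.4 and 97.2 CPM (digit after B) and 31.9, 33.3 and 36.1 CPM (digit before B). Every VLDLR KO library was thus above every WT and every ROBO4 KO library, while WT fell into a higher pair and a lower set of 3 by code form. Over both forms, Fcgr2b was 2.85-fold higher in VLDLR KO than in WT macrophages (log2 fold change 1.51, SE 0.28, adjusted p = 0.0019, edgeR). Groups that did not overlap in either direction were found for 9.43% of all tested genes in this comparison.

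The size of the Fcgr2b difference depended on the code form. VLDLR KO was 5.57-fold above WT among libraries with the digit before B (log2 fold change 2.48, SE 0.148, edgeR adjusted p = 2.7e-07) and 1.5-fold above WT among those with the digit after B (log2 fold change 0.58, SE 0.149, adjusted p = 0.0206). The difference between these 2 values was itself past the threshold, at -1.89 on the log2 scale (SE 0.206, edgeR adjusted p = 0.000174). Against ROBO4 KO, Fcgr2b was higher in VLDLR KO by 4.68-fold among libraries with the digit before B and by 3.27-fold among those with the digit after B, and that pair of values did not differ at the threshold (edgeR adjusted p = 0.11). ROBO4 KO was 2.18-fold below WT with the digit after B (log2 fold change -1.13, SE 0.146, edgeR adjusted p = 0.000764), with 0.25 on the log2 scale with the digit before B (SE 0.15, adjusted p = 0.999), and the difference between forms passed (adjusted p = 0.00626). It was the only one of the 8 genes called for ROBO4 KO against WT within a form, where 1.63% of all genes passed with the digit after B (1.26% lower) and 0.343% with the digit before B. The WT pair with the digit after B is the pair whose immediate early genes, which cells switch on within minutes of a stimulus, were high, with summed levels of 4550 and 5030 CPM, where the range was 697 to 1190 CPM in VLDLR KO libraries, 903 to 1400 CPM in ROBO4 KO libraries and 953 to 968 CPM in the other 3 WT libraries. Without that WT pair, the pooled ROBO4 KO value for Fcgr2b was 0.419 on the log2 scale (edgeR adjusted p = 0.75), and its part in the result was not tested. Of the 14 tested immediate early genes, 7 passed for VLDLR KO against WT, all lower, where 9.03% of all genes were lower. Jun, Fos, Fosb and Dusp1, with the lowest adjusted p, were also lower with the digit before B, where that pair was absent. Their log2 values there were -0.56, -1.23, -2.02 and -1.7 (edgeR adjusted p = 0.00274, 0.000375, 0.0396 and 7.5e-05). For ROBO4 KO against WT, 0 of the 14 passed, where 0.643% of all genes did.

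Fcgr4, the activating receptor that binds mouse IgG2a and IgG2b, had 32.7, 47.5 and 33.7 CPM in VLDLR KO libraries with the digit after B and 14.9 and 16.9 CPM in those with the digit before B. ROBO4 KO libraries had 55.2, 53.2 and 42.1 CPM (digit after B) and 65.7 and 63.9 CPM (digit before B). WT libraries had 74.5 and 75.5 CPM (digit after B) and 80.1, 83.4 and 92.9 CPM (digit before B). All VLDLR KO and all ROBO4 KO libraries lay below all WT libraries, and 1 ROBO4 KO library lay below the highest VLDLR KO library. Fcgr4 was 2.93-fold lower in VLDLR KO than in WT (log2 fold change -1.55, SE 0.264, edgeR adjusted p = 0.000962). Within forms it was 5.38-fold lower with the digit before B and 1.98-fold lower with the digit after B (edgeR adjusted p = 1.18e-06 and 0.000976), and the forms differed by 1.44 on the log2 scale (SE 0.229, adjusted p = 0.002). For ROBO4 KO against WT, the log2 value was -0.57 (SE 0.247, unadjusted p = 0.0367, edgeR adjusted p = 0.731). Its groups did not overlap, as for 2.19% of tested genes in that comparison.

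Fcgr1, the high affinity receptor that can hold single IgG molecules, had 55.4, 31.1 and 56.3 CPM in VLDLR KO libraries with the digit after B and 48.6 and 57 CPM in those with the digit before B. ROBO4 KO libraries had 37.7, 72 and 69.4 CPM (digit after B) and 57.5 and 81.7 CPM (digit before B). WT libraries had 71.9 and 78.1 CPM (digit after B) and 101, 87.6 and 107 CPM (digit before B). VLDLR KO and WT libraries did not overlap, and ROBO4 KO libraries spread across both. Fcgr1 was 1.72-fold lower in VLDLR KO than in WT (log2 fold change -0.78, SE 0.191, edgeR adjusted p = 0.012). The within-form log2 values were -0.65 with the digit after B and -0.9 with the digit before B (edgeR adjusted p = 0.136 and 0.0281), and they did not differ at the threshold (adjusted p = 0.681). Without WT replicate 3 and VLDLR KO replicate 1, which earlier results of these data had set apart by stromal genes, the log2 value was -0.708 and the adjusted p 0.0603. Stromal markers summed to 2.61 to 22.4 CPM in VLDLR KO, 9.28 to 166 CPM in ROBO4 KO and 28.5 to 192 CPM in WT libraries, and their part in the result was not tested.

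Fcgr3, a low affinity receptor for IgG complexes, had 374, 533 and 434 CPM in VLDLR KO libraries with the digit after B and 396 and 428 CPM in those with the digit before B. ROBO4 KO libraries had 842, 703 and 660 CPM (digit after B) and 509 and 501 CPM (digit before B). WT libraries had 860 and 843 CPM (digit after B) and 502, 477 and 551 CPM (digit before B). The high values were thus those of ROBO4 KO and WT libraries with the digit after B, and VLDLR KO replicate 4 lay above 2 of the WT libraries. Fcgr3 was 1.54-fold lower in VLDLR KO than in WT (log2 fold change -0.62, SE 0.126, edgeR adjusted p = 0.00368). With the digit after B the log2 value was -0.93 (SE 0.138, edgeR adjusted p = 0.000649), against -0.31 (SE 0.141, adjusted p = 0.108) with the digit before B, and the forms differed (adjusted p = 0.0492). Without the WT pair with the digit after B, the log2 value was -0.423 (adjusted p = 0.0962), and in a fit without the code form it was -0.577 (adjusted p = 0.0773).

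Fcer1g, the gamma chain on which the activating receptors depend, had 521, 465 and 524 CPM in VLDLR KO libraries with the digit after B and 727 and 1180 CPM in those with the digit before B. ROBO4 KO libraries had 867, 1030 and 937 CPM (digit after B) and 1270 and 1190 CPM (digit before B). WT libraries had 1090 and 970 CPM (digit after B) and 1170, 1200 and 1580 CPM (digit before B). In VLDLR KO, 4 of 5 libraries lay below all WT libraries, and the exception was VLDLR KO replicate 2, the library whose per-length values summed highest. Fcer1g was 1.69-fold lower in VLDLR KO than in WT (log2 fold change -0.76, SE 0.148, edgeR adjusted p = 0.00277), with -1.03 on the log2 scale with the digit after B and -0.47 with the digit before B (edgeR adjusted p = 0.00197 and 0.0653). The within-form values did not differ at the threshold (adjusted p = 0.133). Without the WT pair with the digit after B, the pooled log2 value was -0.612 (adjusted p = 0.0621).

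Tyrobp, the other ITAM adaptor, was not called in any pooled genotype comparison. It had 608, 782 and 773 CPM in VLDLR KO libraries with the digit after B and 886 and 1710 CPM in those with the digit before B, 656 to 836 CPM in ROBO4 KO libraries and 667 to 946 CPM in WT libraries. Its highest value was that of VLDLR KO replicate 2, and the other 14 libraries lay between 608 and 946 CPM. The log2 value for VLDLR KO against WT was 0.33 (SE 0.205, 95% interval -0.11 to 0.77, edgeR adjusted p = 0.296), and without that library it was -0.002. Among libraries with the digit before B, where VLDLR KO had only replicates 1 and 2, the value was 0.75 (edgeR adjusted p = 0.0219).

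Syk, the kinase that docks on phosphorylated ITAMs, ran from 308 to 453 CPM in VLDLR KO, from 338 to 438 CPM in ROBO4 KO and from 421 to 478 CPM in WT libraries. The genotypes overlapped, and the 3 lowest VLDLR KO libraries had the digit after B. The pooled log2 value for VLDLR KO against WT was -0.21 (95% interval -0.4 to -0.01, edgeR adjusted p = 0.146). The value was -0.4 with the digit after B (SE 0.113, edgeR adjusted p = 0.0325) and with the digit before B -0.01 (SE 0.114, adjusted p = 0.964), and the difference between forms did not pass (adjusted p = 0.106).

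Fcgrt, the neonatal Fc receptor, had 22.6, 32.1 and 30.3 CPM in VLDLR KO libraries with the digit after B and 89 and 134 CPM in those with the digit before B. ROBO4 KO libraries had 92.9, 81.8 and 71.4 CPM (digit after B) and 116 and 121 CPM (digit before B). WT libraries had 47 and 51.9 CPM (digit after B) and 72, 67 and 90.8 CPM (digit before B). VLDLR KO libraries with the digit after B were the lowest of all 15, and VLDLR KO replicate 2 was the highest. The pooled log2 value for VLDLR KO against WT, -0.12 (SE 0.245, edgeR adjusted p = 0.777), covered values of opposite sign: -0.8 with the digit after B (adjusted p = 0.0154) and 0.54 with the digit before B (adjusted p = 0.0423), which differed by -1.34 (SE 0.269, adjusted p = 0.0074). In ROBO4 KO, Fcgrt was above WT in both forms, at log2 values of 0.73 with the digit after B and 0.63 with the digit before B. The pooled value of 0.78 (SE 0.249, unadjusted p = 0.00705) did not pass the adjustment (edgeR adjusted p = 0.342). Against ROBO4 KO, Fcgrt was 1.86-fold lower in VLDLR KO (log2 fold change -0.9, SE 0.251, edgeR adjusted p = 0.0252). It was 2.9-fold lower among libraries with the digit after B (adjusted p = 8.04e-05), and the log2 value was -0.09 among the others (adjusted p = 0.765). That call was lost, with log2 values of -0.849 to -0.72 and adjusted p of 0.0547 to 0.0727, when any one of ROBO4 KO replicates 3 and 4 and VLDLR KO replicates 3, 4 and 5 was left out, and in a fit without the code form (-0.651, adjusted p = 0.365).

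**Figure D2:**
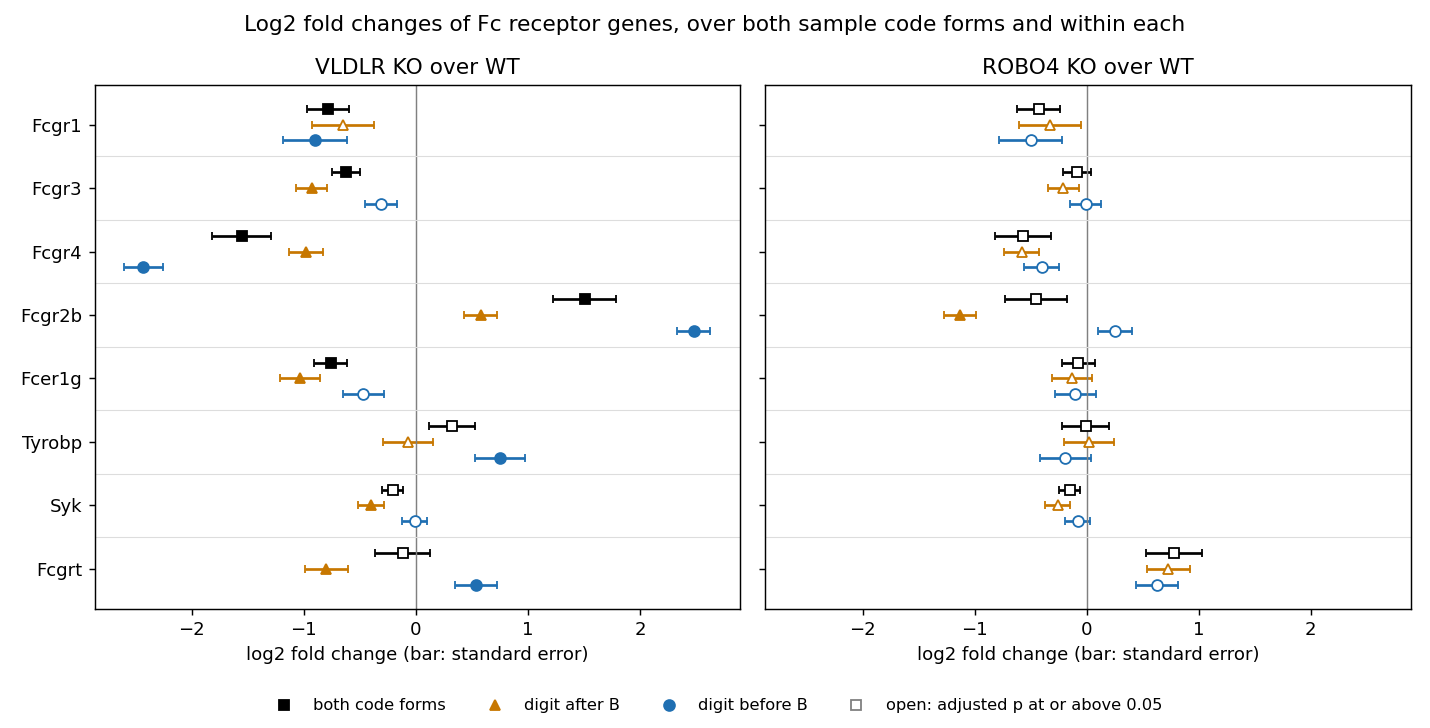
Log2 fold changes of the 8 genes (x axis) for VLDLR KO over WT on the left and ROBO4 KO over WT on the right, from edgeR over both sample code forms (squares), the digit after B (triangles) and the digit before B (circles), with bars for the standard error and filled symbols for an adjusted p under 0.05. Fcgr2b and Fcgr4 of VLDLR KO have their larger values with the digit before B, and Fcgrt of VLDLR KO has opposite signs, -0.8 and 0.54, in the forms.

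Counted by form, 6 of the 8 genes passed for VLDLR KO against WT with the digit after B, 1 higher and 5 lower, where 14.2% of all genes passed, 6.31% higher and 7.85% lower. With the digit before B, 5 of 8 passed, 3 higher and 2 lower, where 33.3% of all genes passed, 17.7% higher and 15.7% lower. Fcgr2b, Fcgr4 and Fcgrt passed in both forms, Fcgrt with opposite signs. When libraries with the digit before B were fitted alone, 3 of 8 passed, and Fcgrt, at a log2 value of 0.55, did not (edgeR adjusted p = 0.0879). A difference between the forms was called for 4 of 8 (Fcgr3, Fcgr4, Fcgr2b and Fcgrt), where 15.2% of all genes had one. For ROBO4 KO against WT it was called for Fcgr2b alone, where 0.403% of all genes had one.

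Between the knockouts, 5 of the 8 genes passed in VLDLR KO against ROBO4 KO, 1 higher and 4 lower, where 16% of all genes passed, 7.57% higher and 8.44% lower. Fcgr2b was 3.9-fold higher (log2 fold change 1.97, SE 0.283, edgeR adjusted p = 0.000251), with no overlap between the groups, as for 8.39% of tested genes. Fcgr4 was 1.98-fold lower (log2 fold change -0.985, SE 0.253, edgeR adjusted p = 0.0165), Fcer1g was 1.6-fold lower (adjusted p = 0.00587) and Fcgr3 was 1.45-fold lower (adjusted p = 0.00972). Fcer1g and Fcgr3 were called with the digit after B (log2 values of -0.91 for Fcer1g, adjusted p = 0.00241, and -0.72 for Fcgr3, adjusted p = 0.00207) and not with the digit before B (-0.37, adjusted p = 0.167, and -0.29, adjusted p = 0.156). In a fit without the code form their log2 values were -0.631 and -0.569 (edgeR adjusted p = 0.113 and 0.0913). Fcgr4 fell by 2.03 on the log2 scale with the digit before B (edgeR adjusted p = 1.03e-05), with -0.4 with the digit after B (adjusted p = 0.0825), and these values differed (adjusted p = 0.00363). With the digit after B 4 of 8 passed, 1 higher and 3 lower, where 12.4% of all genes did (5.85% higher, 6.56% lower), and with the digit before B 3 of 8 passed, 2 higher and 1 lower, where 30.8% did (16.4% higher, 14.4% lower). A difference between forms was called for 2 of 8 (Fcgr4 and Fcgrt), where 8.97% of all genes had one. Fcgr1 had a log2 value of -0.36 (edgeR adjusted p = 0.218).

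By code form over all genotypes, 3 of the 8 genes differed, 1 higher and 2 lower with the digit after B, where 38.1% of all genes did (18.8% higher, 19.3% lower). In libraries with the digit after B, Fcgr3 was 1.38-fold higher (edgeR adjusted p = 0.00293), Fcer1g 1.47-fold lower (adjusted p = 0.00254) and Fcgrt 2.08-fold lower (adjusted p = 0.0011) than in libraries with the digit before B. The share called was near that of all genes, so these calls are not read as particular to the 8 genes. Without WT replicates 1 and 2 the Fcgr3 value was 0.329 on the log2 scale and was not called (edgeR adjusted p = 0.0554). Markers of other cells also moved with the form. Neutrophil markers summed to 16.3 to 34.9 CPM with the digit after B and 0.959 to 3.1 CPM with the digit before B. B cell markers summed to 29.5 to 66.1 CPM with the digit after B and 8.74 to 24.9 CPM with the digit before B, and osteoclast markers to 1260 to 2430 CPM and 707 to 1270 CPM in the same order. Endothelial markers summed to 4.55 to 12.6 CPM with the digit after B and 44.3 to 58.6 CPM with the digit before B in ROBO4 KO and WT libraries, with 10.8 to 28.3 CPM and 9.28 to 19.5 CPM in VLDLR KO libraries. The part of these cells in the form values was not tested. Bulk RNA cannot tell fewer cells of a type from less RNA per cell.

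Levels of different genes can be compared per length, as FPKM (fragments per kilobase of transcript, scaled to library size). The adaptors stood highest, at 914 to 3280 FPKM for Fcer1g and 1640 to 3780 FPKM for Tyrobp over all 15 libraries, ranges that overlap. Fcgr3 followed at 326 to 696 FPKM and was the most abundant receptor in every library. Syk (65.8 to 96.7 FPKM), Fcgr4 (14 to 87 FPKM), Fcgrt (15 to 79.5 FPKM), Fcgr2b (26.4 to 155 FPKM) and Fcgr1 (12.5 to 44.9 FPKM) followed, and their ranges overlapped except that Fcgr1 lay below Syk in every library. The place of Fcgr2b in this order changed with genotype: its mean was 129 ± 26.7 FPKM in VLDLR KO, above the 77.4 ± 11.4 FPKM of Syk, against 34.3 ± 2.02 FPKM in ROBO4 KO and 46.2 ± 25.3 FPKM in WT (SD, n = 5 each), below Syk at 81.6 ± 7.3 FPKM in ROBO4 KO and 91.2 ± 5.38 FPKM in WT.

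The make-up of the receptor pool followed from these levels and is a description with no test of its own. Fcgr2b took 14.8% to 29.5% of the summed FPKM of the 4 Fc gamma receptor genes in VLDLR KO libraries, against 4.64% to 6.41% in ROBO4 KO libraries and 4.58% to 8.85% in WT libraries. Fcgr3 took 63% to 75.6% in VLDLR KO, 77.4% to 87.1% in ROBO4 KO and 74% to 80.6% in WT libraries. Fcgr4 took 2.66% to 7.46% in VLDLR KO, 5.96% to 11.1% in ROBO4 KO and 7.71% to 14.3% in WT libraries. Set against Fcgr2b, the FPKM of Fcgr4 came to 0.232 to 0.505 of it in VLDLR KO, 1.16 to 1.43 in ROBO4 KO and 0.891 to 0.917 in WT libraries with the digit after B. With the digit before B the same ratio was 0.0902 to 0.103 in VLDLR KO, 1.74 to 1.99 in ROBO4 KO and 2.87 to 2.95 in WT libraries. The ratio of Fcgr4 to Fcgr2b was thus below 1 in each VLDLR KO library and in the WT pair with the digit after B, and above 1 in the other libraries. For Fcgr3 over Fcgr2b, VLDLR KO libraries had 2.39 to 5.12 with the digit after B and 2.16 to 2.37 with the digit before B, against 16.5 to 18.8 and 12.2 to 14.1 in ROBO4 KO and 9 to 9.58 and 14.9 to 16.3 in WT libraries.

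**Figure D3:**
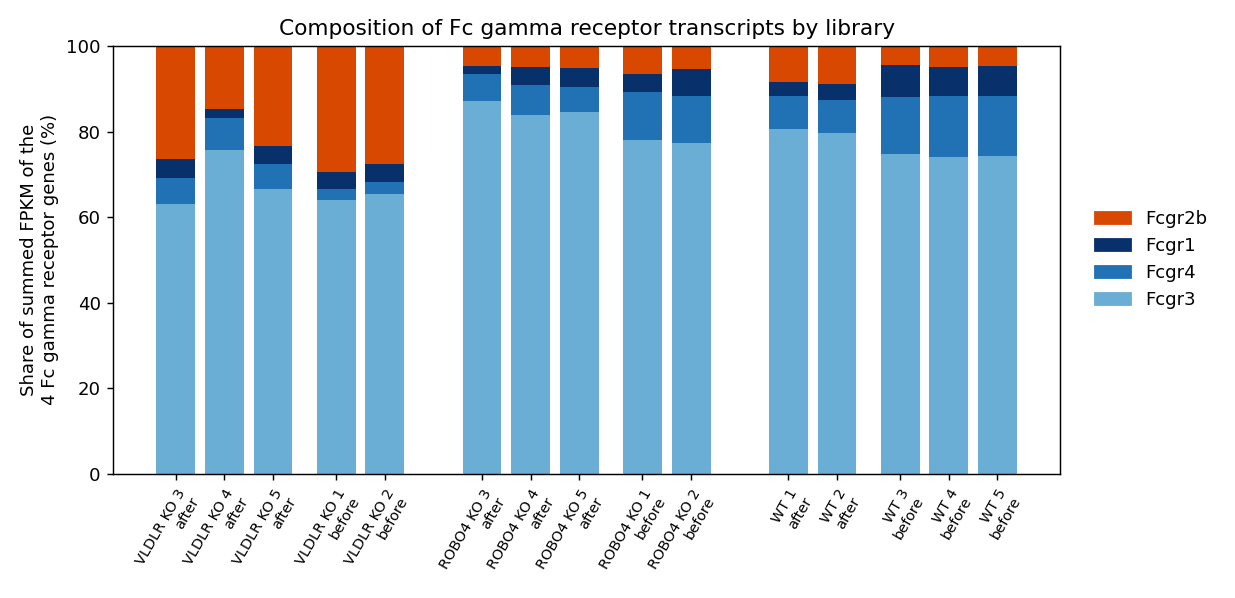
Share of each Fc gamma receptor gene in the summed FPKM of the 4 genes (y axis, percent) for each library, with VLDLR KO, ROBO4 KO and WT from left to right and, within a genotype, the digit after B before the digit before B. Fcgr2b, in orange at the top, takes 14.8% to 29.5% in VLDLR KO libraries and at most 8.85% in any other library.

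Fcgr2b and Fcgr3 of the mouse have nearly identical extracellular parts, so reads could be divided between them in error, and their separate values are uncertain to that extent. In a check added after the data were seen, the counts of both genes were summed. The sum was 537 to 641 CPM in VLDLR KO, 538 to 888 CPM in ROBO4 KO and 510 to 954 CPM in WT libraries, and its pooled log2 value for VLDLR KO against WT was -0.27 (SE 0.133, edgeR adjusted p = 0.175). Within forms it was -0.68 with the digit after B (edgeR adjusted p = 0.00127) and 0.14 with the digit before B (adjusted p = 0.34). Fcgr2b made up 16.8% to 32.3% of the summed counts in VLDLR KO, 5.24% to 7.85% in ROBO4 KO and 5.97% to 10.3% in WT libraries. With the digit before B the log2 value of the sum lay between those of Fcgr2b (2.48) and Fcgr3 (-0.31). With the digit after B it also lay between the 2 genes (0.58 and -0.93). A sum of 2 genes lies between their values by construction, so this check cannot tell whether reads were divided in error.

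In the deposited transcript table the 8 genes had 18 transcripts, of which 16 were tested. For VLDLR KO against WT 5 of them passed, where 3.33% of all 30096 tested transcripts did, for ROBO4 KO against WT 0 passed (0.11% of all), and for VLDLR KO against ROBO4 KO 3 passed (3.27% of all). The only Fcgr1 transcript, NM_010186.5, did not pass for VLDLR KO against WT (log2 value -0.79, edgeR adjusted p = 0.0526). Nor did the only Fcgr4 transcript, NM_144559.2, for VLDLR KO against ROBO4 KO (-1.01, adjusted p = 0.0659). Both genes were called in these comparisons. The Fcgr2b difference was carried by NM_010187.2, at 156 ± 32 CPM in VLDLR KO, 41.4 ± 3.32 CPM in ROBO4 KO and 57 ± 32.5 CPM in WT (SD, n = 5 each; log2 fold change over WT 1.5, edgeR adjusted p = 0.0109). Its other transcript, NM_001077189.1, was low, at 4.06 ± 3.04 CPM in VLDLR KO, 1.25 ± 0.606 CPM in ROBO4 KO and 1.43 ± 1.17 CPM in WT, and did not pass (log2 value 1.35, adjusted p = 0.184). Of the Fcgr3 transcripts, NM_010188.5 was lower (log2 fold change -0.7, SE 0.125, edgeR adjusted p = 0.00629), and the predicted XM_006496661.3 had -0.16 (SE 0.122, adjusted p = 0.661). One Syk transcript, NM_001198977.1, passed at 214 ± 27.7 CPM in VLDLR KO, 260 ± 34.9 CPM in ROBO4 KO and 278 ± 22.6 CPM in WT (log2 fold change over WT -0.41, edgeR adjusted p = 0.0332). The other main Syk transcript, NM_011518.2, had a log2 value of 0.06 (SE 0.189, adjusted p = 0.958). Its estimated counts lay in opposite directions by form: 1581 to 1922 in VLDLR KO against 2298 and 2494 in WT with the digit after B, and 3788 and 3803 in VLDLR KO against 2367 to 2871 in WT with the digit before B. How reads were assigned to transcripts that share exons was not given in the sources used here.

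The authors' deposited table compared genotypes within each code form. Its headers named groups by letters only, and the groups and the direction, WT over the knockout, were read from the group means in the same table, so that a negative value means higher in the knockout. There, Fcgr2b had -2.484 (q = 1.87e-54) for WT over VLDLR KO with the digit before B and -0.593 (q = 0.0245) with the digit after B in the authors' deposited table. Fcgr4 had 2.421 (q = 3.95e-38) and 0.976 (q = 1.22e-05) in the same comparisons of the authors' deposited table. For WT over ROBO4 KO, the authors' deposited table gave Fcgr4 a q of 0.0164 with the digit before B and 0.00816 with the digit after B, and Fcgrt a q of 0.000773 and 0.000101. In the edgeR fit those 4 values, with the same directions, had adjusted p of 0.839, 0.0997, 0.379 and 0.104, in the same order. The other way round, the digit before B value of VLDLR KO against WT was called by edgeR for Tyrobp and Fcgrt, and the authors' deposited table gave them a q of 0.0573 and 0.11.

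4 of the 8 genes lie together: Fcgr2b, Fcgr4, Fcgr3 and Fcer1g span chr1:170960558-171234349 (GRCm38.p6), an interval of 274 kb. Between them lie 4 further tested genes, of which Pcp4l1 (log2 fold change -1.27, edgeR adjusted p = 0.00763), Cfap126 (-1.61, adjusted p = 0.000533) and Sdhc, a subunit of succinate dehydrogenase (-0.41, adjusted p = 0.0122), were lower in VLDLR KO than in WT, and Tomm40l had -0.18 (adjusted p = 0.308). Within 1 Mb of these 4 members, 41 further genes were tested, and 19 of them (46.3%) passed for VLDLR KO against WT, 5 higher and 14 lower, against 16.8% of all genes. For ROBO4 KO against WT 1 of 41 passed, where 0.643% of all genes did. It was Gm39701 (log2 fold change 1.13, edgeR adjusted p = 0.00694), which was also higher in VLDLR KO than in WT (0.6, adjusted p = 0.0385). Several of the neighbours are immune receptor genes of the SLAM family, which signal through SAP adaptors: Slamf7 (log2 fold change -2.52, edgeR adjusted p = 8.82e-08) and Cd244a (-1.59, adjusted p = 0.000242) were lower in VLDLR KO, as was the adaptor Sh2d1b1 (-2.81, adjusted p = 4.42e-07), while Slamf6 (2.45, adjusted p = 0.00012) and Ly9 (0.35, adjusted p = 0.00944) were higher. Fcgr1, on chromosome 3, had 45 tested neighbours within 1 Mb, with 2 higher and 11 lower, among them Ctss, the protease cathepsin S (-0.49, edgeR adjusted p = 0.0116). Around Tyrobp 4 of 50 passed, around Fcgrt 7 of 58 and around Syk 1 of 7. Neighbouring genes are not independent, and the share near the chromosome 1 members is a description.

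**Figure D4:**
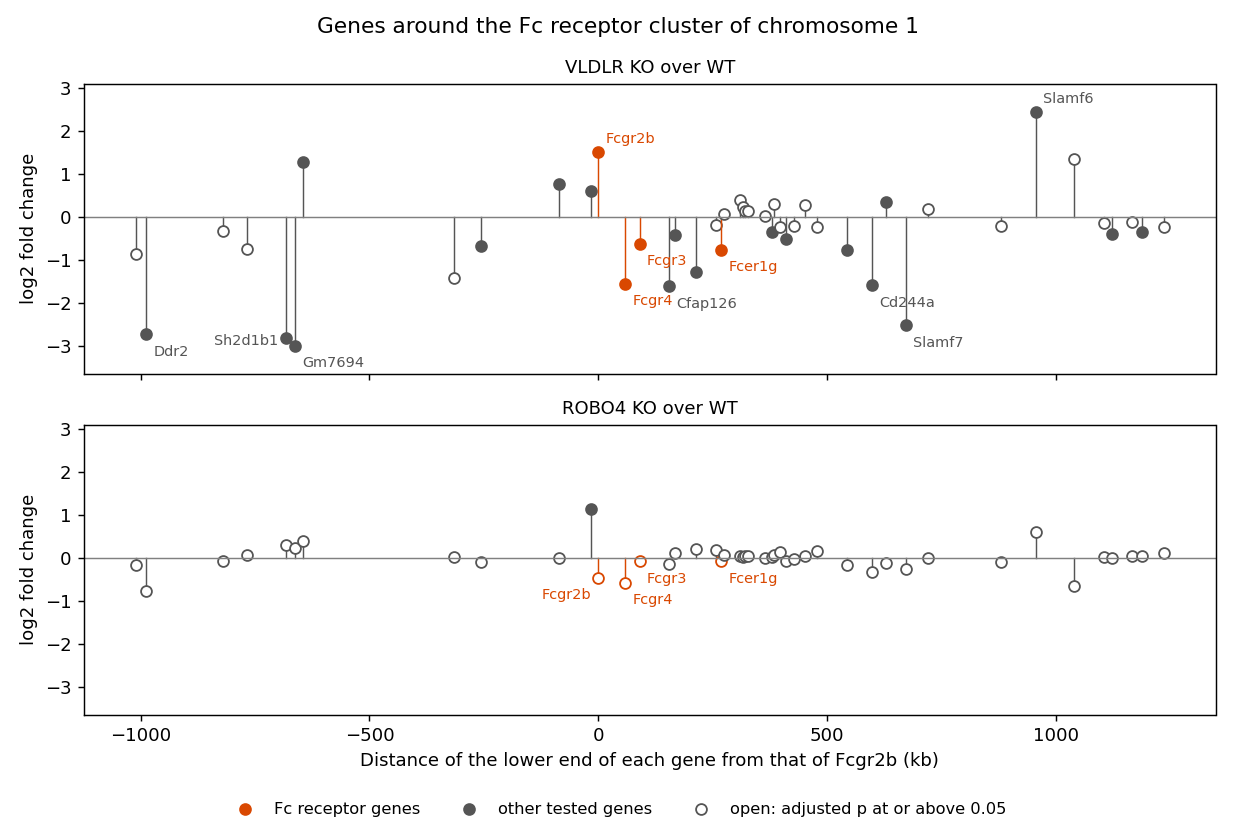
Log2 fold change (y axis) of every tested gene within 1 Mb of the 4 Fc receptor genes of chromosome 1, by distance from Fcgr2b in kb (x axis), for VLDLR KO over WT above and ROBO4 KO over WT below, with filled symbols for an adjusted p under 0.05. Called genes lie on both sides of the cluster in VLDLR KO (19 of 41 beside the members), and 1 of 41 is called in ROBO4 KO. Over all tested genes, 16.8% are called in VLDLR KO and 0.643% in ROBO4 KO.

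Partners of these receptors were counted in 5 lists for VLDLR KO against WT. Over all tested genes 16.8% passed in this comparison (7.74% higher, 9.03% lower), and none of the counts is read as particular to its list. Of the 36 tested ITAM signalling enzymes and scaffolds, 4 passed, 2 higher and 2 lower, with a median log2 fold change of -0.03 against 0.019 over all genes. Pik3ap1, an adaptor that links receptors to PI3 kinase, was lower at 264 ± 71.2 CPM in VLDLR KO, 669 ± 92.6 CPM in ROBO4 KO and 699 ± 117 CPM in WT (SD, n = 5 each; log2 fold change over WT -1.37, edgeR adjusted p = 0.00018). Cbl, a ubiquitin ligase that ends ITAM signals, was lower too (log2 fold change -1.58, adjusted p = 0.00251). The SRC family kinase gene Fgr (1.35, adjusted p = 0.00318) and the scaffold gene Lat (0.78, adjusted p = 0.0275) were higher. Lat was not called with the digit before B (0.48, adjusted p = 0.287). Lyn, which phosphorylates ITAMs, had a log2 value of 0.08 (SE 0.0911) and Btk -0.01 (SE 0.0647), and neither passed. Inpp5d, which encodes SHIP1, had 0.24 (SE 0.0889, adjusted p = 0.0789).

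Of the 15 tested receptors that pair with TYROBP or FCER1G, 4 passed, 3 higher and 1 lower, where 16.8% of all genes passed. Clec4n, the fungal sensor dectin 2 that signals through the gamma chain, was higher at 37.6 ± 20.1 CPM in VLDLR KO, 8.9 ± 3.34 CPM in ROBO4 KO and 8.88 ± 3.08 CPM in WT (SD, n = 5 each; log2 fold change over WT 2.03, edgeR adjusted p = 0.00134). Clec5a, a TYROBP partner (1.17, adjusted p = 0.00126), and Pira6 (1.01, adjusted p = 0.00274) were higher, and Cd300ld, a gamma chain partner, was lower (-1.58, adjusted p = 3.41e-05). Clec4n was not called with the digit after B (1, adjusted p = 0.0584). Trem2 had -0.24 (SE 0.196, adjusted p = 0.419). Of the 24 tested inhibitory receptors and phosphatases, 5 passed, 3 higher and 2 lower, against the same 16.8%, among them the sialic acid receptors Cd33 (0.7, adjusted p = 0.00936) and Siglece (1.28, adjusted p = 0.0127), the phosphatase Ptpn22 (-1.05, adjusted p = 5.96e-06) and the collagen receptor Lair1 (-0.42, adjusted p = 0.0145). Siglece (0.9, adjusted p = 0.225) and Lair1 (-0.21, adjusted p = 0.205) were not called with the digit after B. Of the 4 tested other Fc receptors and IgG binding proteins, Trim21, a cytosolic antibody receptor (-0.47, adjusted p = 0.00192), and Fcrl1 (-1.03, adjusted p = 0.00871) were lower, Fcrl1 without a call with the digit before B (-0.84, adjusted p = 0.0686).

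Of the 24 tested phagocytosis and oxidase effectors, 4 passed, 2 higher and 2 lower, where 16.8% of all genes passed. The oxidase subunits Ncf4 and Ncf1 were higher in VLDLR KO (log2 fold change 1.2, edgeR adjusted p = 7.93e-05, and 0.37, adjusted p = 0.00298), while Itgam, the alpha chain of complement receptor 3 (-0.82, adjusted p = 0.0114), and Actr3, an actin nucleator subunit (-0.4, adjusted p = 0.0152), were lower. With the digit after B, Itgam (-0.62, adjusted p = 0.117), Actr3 (-0.22, adjusted p = 0.221) and Ncf1 (0.22, adjusted p = 0.109) were not called. Cybb, the catalytic oxidase subunit, had -0.06 (SE 0.164, adjusted p = 0.836). Of 23 tested interferon response genes, which matter here because interferon gamma raises Fcgr1 and Fcgr4 in mouse macrophages, 3 passed and all were lower: Rsad2 (-2.05, adjusted p = 1.77e-05), Oasl2 (-1, adjusted p = 1.5e-05) and Ciita (-2.07, adjusted p = 0.0211), where 9.03% of all genes were lower. Ciita was not called with the digit before B (-0.6, adjusted p = 0.51), against -3.28 with the digit after B (adjusted p = 0.00324). For ROBO4 KO against WT, 0 genes of the 5 lists of partners passed, and Rsad2 (-1.29, adjusted p = 0.00805) and Oasl2 (-0.5, adjusted p = 0.0478) of the interferon list did, where 0.643% of all genes passed. Rsad2 was called with the digit before B alone (-1.63, adjusted p = 0.00191), and Oasl2 in neither form (-0.7 before B, adjusted p = 0.0502, and -0.29 after B, adjusted p = 0.519). Macrophage markers themselves were not level: for VLDLR KO against WT 6 of 16 passed, 3 higher and 3 lower, where 16.8% of all genes passed, with Lyz2 (1.27, adjusted p = 0.00211), Cx3cr1 (2.76, adjusted p = 0.00141) and C1qa (1.27, adjusted p = 0.0103) higher and Adgre1, which encodes F4/80 (-0.35, adjusted p = 0.00902), Itgam and Mrc1, the mannose receptor (-0.67, adjusted p = 0.0275), lower. C1qa was not called with the digit after B (0.33, adjusted p = 0.424), nor Adgre1 with the digit before B (-0.2, adjusted p = 0.139). Their part in the Fc receptor values was not tested.

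**Figure D5:**
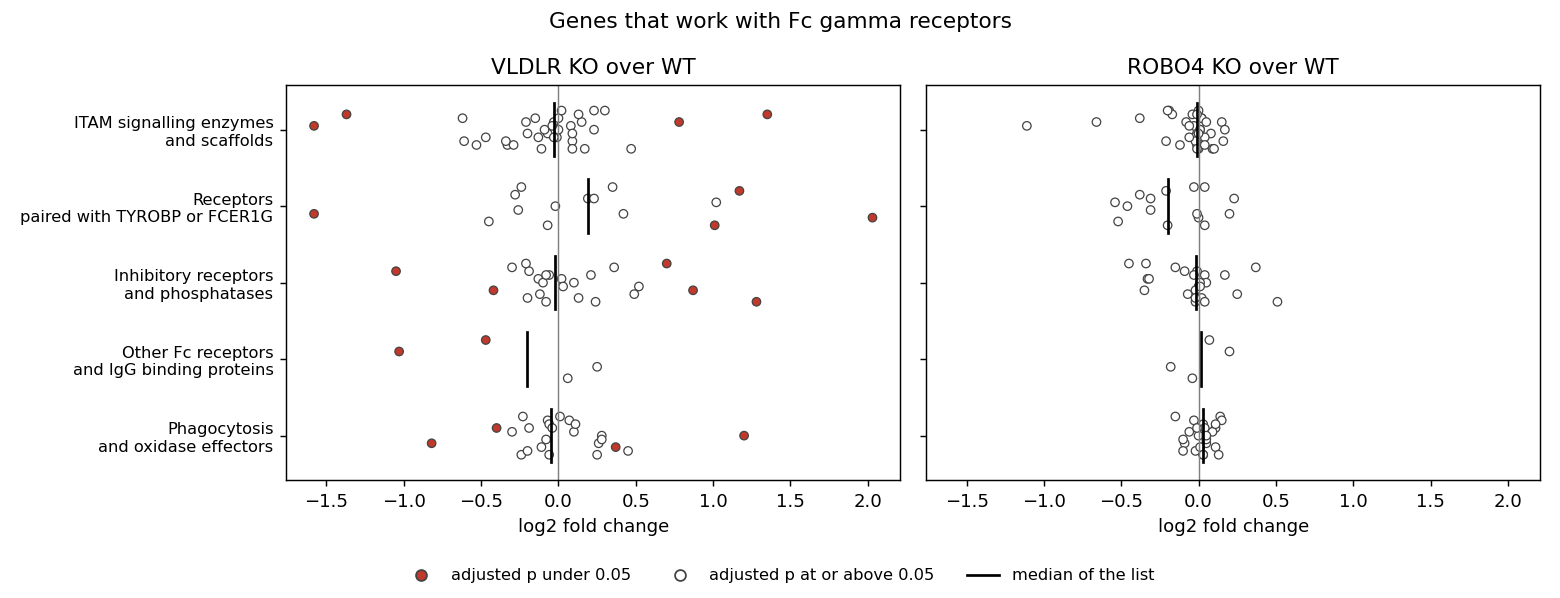
Log2 fold change (x axis) of every tested gene of 5 lists of genes that work with Fc gamma receptors, for VLDLR KO over WT on the left and ROBO4 KO over WT on the right, with filled points for an adjusted p under 0.05 and a bar at the median of each list. The medians lie between -0.2 and 0.19 for VLDLR KO, with 2 to 5 genes of each list called, and 0 genes are called for ROBO4 KO.

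Across the 15 libraries, with the mean of each code form removed, Fcgr3 and Fcer1g varied together (Pearson r = 0.842), and Fcgr2b and Fcgr4 varied oppositely (r = -0.805), while Tyrobp had r = 0.054 with Fcer1g. These are descriptions over 15 libraries that share genotypes and depth. The tested genes most like each member by the same measure were Rftn1 (r = 0.966), Chd7 (0.954) and Clec4n (0.952) for Fcgr2b, and Rtl6 (0.97), Lonrf1 (0.963) and Fam83f (0.962) for Fcgr4. For Fcgr3 they were Fam20c (0.987), Prcp (0.965) and Nub1 (0.961), and for Fcer1g Mrps14 (0.975), Tpt1 (0.974) and Dbndd2 (0.958). Fcgr1 was most like Plekhg3 (0.937), P4ha2 (0.914) and Ms4a6b (0.893), and Fcgrt most like Clec12a (0.952), Pdgfb (0.948) and Hsd17b14 (0.922). Clec4n, itself a receptor of the gamma chain, and Clec12a, an inhibitory lectin receptor, were on the lists of partners.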

How the data were processed

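RNA-seq libraries of bone macrophages were compared across 3 genotypes. HISAT and Bowtie2, and the build GRCm38.p6, are named per the submitters' processing notes, and the quantifier is not given in the sources used here. The authors deposited estimated counts per gene and transcript, which were rounded to whole numbers (92.6% of gene values were already whole). They also deposited expression values that behave as FPKM, although the file headers do not name the unit, and log2 fold changes with DESeq2 q-values, per the file headers. Those headers name groups by letters, which were identified because the deposited group means equal the means of the named libraries.

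Counts were tested with edgeR 4.0.16 in R 4.3.3: filterByExpr, TMM factors, a quasi-likelihood fit of genotype and code form over all 15 libraries, and Benjamini-Hochberg adjustment over 11668 genes. A fit with 1 mean per genotype and form gave values within forms and their difference. CPM are counts scaled to TMM-adjusted library size. The pipeline was run on simulated data whose genotype changes were the same in both code forms. Effects that differ between forms, as for several members here, were thus not covered. Alternatives were DESeq2 1.42.0, RLE factors, limma 3.58.1 on log2(FPKM + 1), no filter, no code form, a replicate block, each form alone and libraries left out. The members and lists were chosen with earlier results of these data known. A rule set which genes could be named. It covered all 8 members, up to 4 called genes per list and comparison with the lowest adjusted p, and the 3 genes most correlated with each called member. Not every list gene that met the rule is named. Those of the osteoclast, T and NK cell, neutrophil and stromal lists are left out. List genes are named only for VLDLR KO and ROBO4 KO, each against WT. That choice was not set by the rule. Neighbours within 1 Mb could be named only if called. Not every called neighbour is named, and the choice among them was not set by the rule. Lyn, Btk, Inpp5d, Trem2, Cybb, Mrc1 and Tomm40l fall outside the rule and were named after their values were seen.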

Additional observations from a re-analysis of the deposited data

Results flagged for a closer look

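Tyrobp stood at 1710 CPM in VLDLR KO replicate 2, far from the other 4 VLDLR KO libraries at 608 to 886 CPM. It was the only value set apart in 24 groups of 5 libraries, groups that share the same libraries. How many would be set apart by chance is not given here. The same library had the highest sum of per-length values.

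The other results are differences of an effect between the code forms, each tested with edgeR and given as the log2 fold change with the digit after B minus that with the digit before B. For VLDLR KO against WT the difference was -1.89 for Fcgr2b, 1.44 for Fcgr4, -1.34 for Fcgrt and -0.62 for Fcgr3. Fcgr2b and Fcgr4 kept their direction in both forms, and Fcgrt had opposite signs. For ROBO4 KO against WT it was -1.38 for Fcgr2b. Between VLDLR KO and ROBO4 KO it was 1.63 for Fcgr4 and -1.45 for Fcgrt. What the form stands for is not given in the labels, and each form holds 2 or 3 libraries of a genotype.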

How the results depend on the processing

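The counts of member calls for VLDLR KO against WT (5), ROBO4 KO against WT (0), VLDLR KO against ROBO4 KO (5) and code form (3) were within 1.5 times under RLE factors, no filter, DESeq2 and limma. DESeq2 called 176 genes for ROBO4 KO against WT in place of 75. Without the code form, edgeR called 1086, 39 and 888 genes in the 3 genotype comparisons in place of 1957, 75 and 1868, with 2 members for VLDLR KO against ROBO4 KO, and 2 and 1 member transcripts in place of 5 and 3. No pairing of libraries by the digit in the sample code was seen. Deviations of same-digit libraries correlated at -0.436 to 0.311 in 12 pairs, of which 4 were over 0.1. Those of different-digit libraries correlated at -0.494 to 0.571 in 25 pairs, of which 13 were over 0.1. With 2 or 3 libraries per genotype and form, many of these values mirror each other, so the check cannot exclude pairing. With the replicate block, 1141 genes passed for VLDLR KO against ROBO4 KO and 3 member transcripts for VLDLR KO against WT, Fcgr4 lost its call for VLDLR KO against ROBO4 KO (adjusted p = 0.0605), and for ROBO4 KO against WT Fcer1g was at 0.018 and Tyrobp at 0.094 on the log2 scale.

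With the digit before B alone, 3 members passed for VLDLR KO against WT, 2 for VLDLR KO against ROBO4 KO, and 20 genes for ROBO4 KO against WT. Log2 values of opposite sign to the pooled ones were 0.55 (Fcgrt) for VLDLR KO against WT, 0.249 (Fcgr2b) for ROBO4 KO against WT and 0.078 (Syk) for VLDLR KO against ROBO4 KO. Syk was at 0 for VLDLR KO against WT. With the digit after B alone, 188 genes and 1 member passed for ROBO4 KO against WT, and Tyrobp was at -0.07, 0.025 and -0.095 in the 3 comparisons. Without WT replicates 1 and 2, 3 members passed for VLDLR KO against WT and 44 genes for ROBO4 KO against WT. Fcgrt was then at 0.176 for VLDLR KO against WT, and for ROBO4 KO against WT Fcgr3 was at 0.122, Fcgr2b at 0.419, Fcer1g at 0.077 and Tyrobp at 0.159, while the code form values were -0.143 for Fcgr2b and 0.329 for Fcgr3, whose call was lost (adjusted p = 0.0554). Without WT replicate 3 and VLDLR KO replicate 1, Fcgr4 had a code form value of -0.006 and an adjusted p of 0.05 for VLDLR KO against ROBO4 KO. With limma, Tyrobp was at 0.005 for ROBO4 KO against WT. With Fcgr2b and Fcgr3 counts summed, an alternative chosen after the data were seen, the value was -0.272 for VLDLR KO against WT and -0.168 for VLDLR KO against ROBO4 KO.

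With 1 library left out at a time, 1455 to 2269 genes passed for VLDLR KO against WT, 55 to 125 for ROBO4 KO against WT, 1298 to 2041 for VLDLR KO against ROBO4 KO and 3911 to 4718 for code form. Members called were 5 in each such fit for VLDLR KO against WT, 0 for ROBO4 KO against WT, 4 to 5 for VLDLR KO against ROBO4 KO and 3 for code form. Members whose effect differed between forms numbered 3 to 6, 0 to 1 and 2 to 4. Log2 values that changed sign in at least 1 such fit ranged from -0.002 to 0.434 (Tyrobp) and from -0.42 to 0.038 (Fcgrt) for VLDLR KO against WT, from -0.078 to 0.089 (Tyrobp) for ROBO4 KO against WT, from -0.104 to 0.003 (Syk) for VLDLR KO against ROBO4 KO, and from -0.001 to 0.263 (Fcgr4) by code form. None of these was called in the fit of all libraries. The causes were not tested.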
